A study of Mus musculus with 4 samples.

Results

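The genes described here encode the soluble receptors of selective autophagy, the adaptors that tie a cargo to the forming autophagosome. They are 8 genes (Sqstm1, Nbr1, Optn, Tax1bp1, Calcoco1, Tollip, Ncoa4 and Wdfy3), found by symbol among the 56953 gene rows of the count table, and all 8 were among the 14600 genes tested. The libraries came from mouse liver and were read from the 3' end of each transcript. The deletion group holds 2 libraries from Ubc13 flox/flox mice that were positive for albumin-Cre, and the control group holds 2 libraries from Ubc13 flox/flox mice that were negative for it and that the labels call WT. All mice carried the loxP-flanked alleles, were 2 months old and ate a normal diet. Albumin drives the Cre recombinase in hepatocytes. Ubc13 is the enzyme that joins ubiquitin into K63-linked chains, and its gene is Ube2n. Whether other cell types of the deletion livers kept Ubc13 was not tested. The title of the series ties UBE2N deficiency to steatohepatitis by way of mitophagy that p62 regulates and of PANoptosis, a form of cell death. Tissue is labelled as liver, although the description of library preparation mentions hepatocytes, and no label says whether replicates were separate animals. The p-values here therefore speak of the spread among 4 libraries, and the 2 controls may come from 1 animal. The 2 deletion libraries differed in Y-linked counts, given below, and so were not repeats of 1 RNA sample.

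A selective autophagy receptor holds a cargo, often marked by ubiquitin chains, with one part of the protein, and with another part it binds proteins of the ATG8 family on the growing membrane. The protein of Sqstm1, p62, polymerizes, gathers ubiquitinated proteins into condensates and is broken down together with them, so protein and transcript can move apart. In hepatocytes p62 is also known as a component of Mallory-Denk bodies and as a binding partner of KEAP1, the protein that holds the antioxidant factor NRF2 in check.

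Total counts ran from 16927947 to 17114003 in the deletion libraries and from 16270424 to 17800138 in the controls. Ube2n had 5.87 and 5.96 CPM (counts scaled to library size and TMM factor) in the deletion libraries, against 41.2 and 44.9 CPM in the controls (log2 fold change -2.86 ± 0.16 SE, edgeR adjusted p = 0.00188). Xist, which marks female cells, had 9590 and 3896 counts in the deletion libraries and 9 and 2 in the controls, and Ddx3y, Uty, Kdm5d and Eif2s3y, all Y-linked, had 0 counts in deletion replicate 1 and 206 to 719 in deletion replicate 2, against 216 to 1027 in the controls, so every difference below runs along with a difference in sex-linked transcripts. With edgeR 4.41% of all tested genes rose and 2.16% fell (adjusted p under 0.05). Of 8 hepatocyte markers 4 fell. The summed level of the 8 was 59468 to 64651 CPM in the deletion libraries, against 153475 to 159403 CPM in the controls. Of 10 macrophage markers 1 rose, with sums of 819 to 1033 CPM in the deletion libraries and 503 to 682 CPM in the controls. Of the 7 tested of 8 ductular markers 3 rose, with sums of 1516 to 2151 CPM in the deletion libraries and 117 to 167 CPM in the controls, of which Spp1 gave 1325 and 1913 CPM in the deletion libraries and 50.3 and 52.4 CPM in the controls, and Sox9 and Cdh1 also rose (log2 fold changes 1.81 and 1.75, edgeR adjusted p = 0.0124 and 0.0070). Among the ductular genes that did not pass, Krt19 and Epcam had 2.91 and 3.96 CPM and 2.03 and 2.93 CPM in the deletion libraries, against 39.1 and 3.23 CPM and 6.65 and 1.78 CPM in the controls. None of the 3 tested neutrophil, 5 tested lymphocyte, 8 stellate or 7 endothelial markers passed, and Ly6g was at 0 counts in all 4 libraries. The part of these shifts in the results below was not tested, and in bulk tissue fewer cells of a type and less RNA per cell cannot be told apart.

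The promoters of the receptor with the highest fold change, Sqstm1, and of the receptor with the lowest, Ncoa4, are shown because the response genes of NRF2 form 1 of the lists compared further on. Both windows are from RefSeq on GRCm38.p6, reach from 250 bases before a transcription start to 50 after it, and are written 5' to 3' on the gene's own strand. Capitals mark a match to the kB consensus in Sqstm1 and to the core of the antioxidant response element, TGACNNNGC, in Ncoa4.
Sqstm1, chr11:50210771-50211070, minus strand: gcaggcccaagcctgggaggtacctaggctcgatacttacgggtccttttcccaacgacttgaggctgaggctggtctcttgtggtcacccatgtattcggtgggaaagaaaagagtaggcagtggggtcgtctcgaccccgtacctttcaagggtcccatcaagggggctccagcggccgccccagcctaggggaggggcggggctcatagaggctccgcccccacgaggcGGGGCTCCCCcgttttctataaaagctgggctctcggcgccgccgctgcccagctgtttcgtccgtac
Ncoa4, chr14:32165539-32165838, plus strand: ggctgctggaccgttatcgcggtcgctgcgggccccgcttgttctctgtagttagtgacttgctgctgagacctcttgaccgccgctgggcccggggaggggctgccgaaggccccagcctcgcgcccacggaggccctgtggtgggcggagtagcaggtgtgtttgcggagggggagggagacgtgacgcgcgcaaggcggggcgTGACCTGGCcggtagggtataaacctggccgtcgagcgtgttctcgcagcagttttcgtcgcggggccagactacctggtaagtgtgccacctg

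RefSeq windows were at hand for 7 of the 8 genes, 11 windows in all, and both strands were searched. TGACNNNGC occurred in 2 of the 11, 1 each of Tax1bp1 and Ncoa4, and in 12.4% of all 32851 windows. In the windows of the NRF2 list it occurred in 11 of 28. The E-box CACGTG, which TFEB and its relatives read, occurred in 0 of the 11 and in 7.15% of all windows. The kB consensus occurred in 3 of the 11, 1 each of Sqstm1, Tax1bp1 and Ncoa4, and in 8.46% of all windows. These are matches of letters in short windows and say nothing of binding, and each printed window held 1 match. Bases outside the windows were not searched, so the Sqstm1 window does not show whether the gene has such a core further off.

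None of the 8 receptor genes passed the test, where 6.57% of all tested genes did (4.41% higher and 2.16% lower). At an unadjusted p under 0.05, 1 receptor gene was higher (Sqstm1) and 1 was lower (Ncoa4), where 14.0% of all tested genes were higher and 10.5% lower. With DESeq2 1 was called higher, where 6.8% of all tested genes were, and 0 lower. The 2 deletion libraries lay above both controls for 1 gene, below both for 3 and overlapped them for 4, while among all tested genes 28.7% lay above, 27.3% below, and 56.0% did not overlap. The median log2 fold change of the 8 genes was -0.090, that of all tested genes -0.0036. With library sizes alone as scaling these medians were 0.20 and 0.29. The members thus differed from one another in direction, and their shares were near those of all genes.

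**Figure D1:**
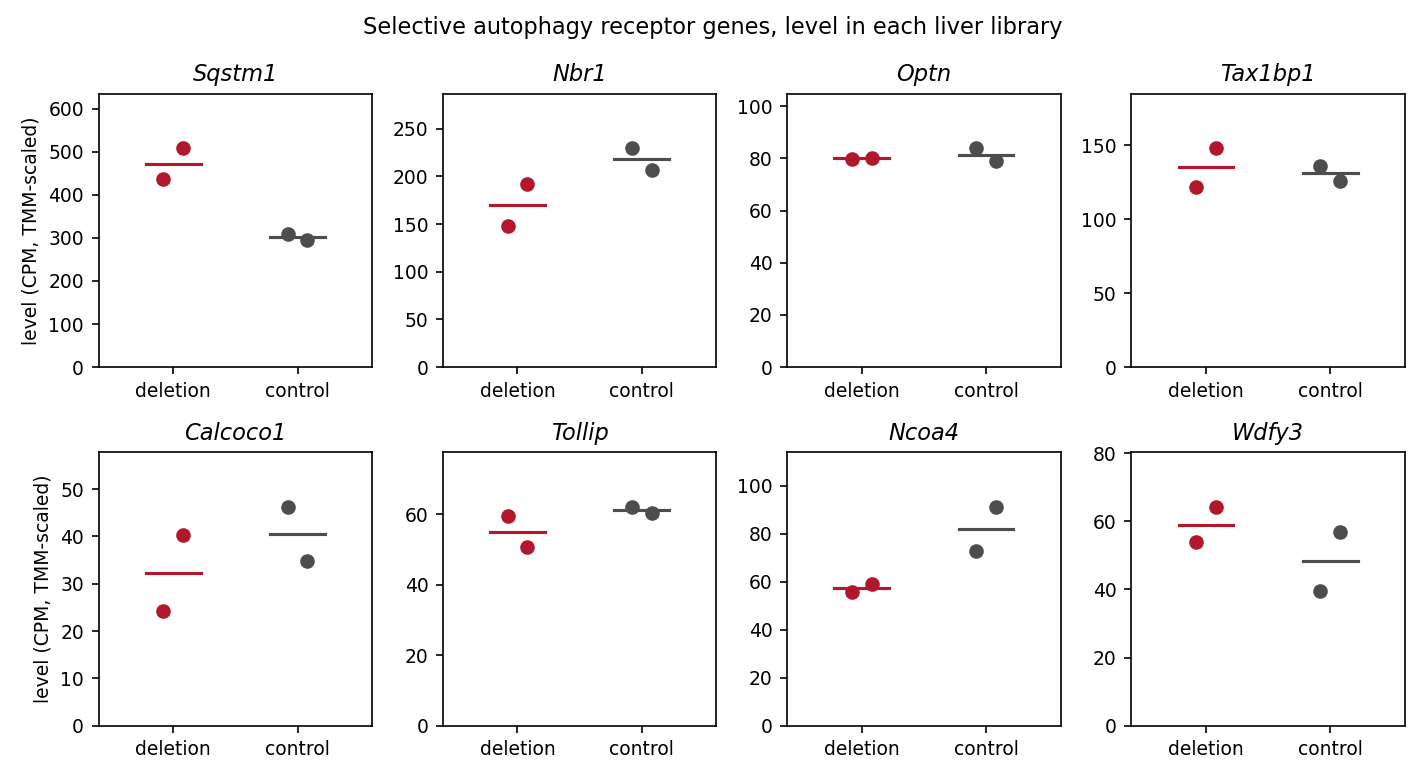
Level of the 8 receptor genes in each liver library, in CPM scaled by TMM on axes that start at 0; red points are the deletion libraries, grey points the controls, and bars the group means. Sqstm1 lies at 437 and 508 CPM in the deletion libraries, against 310 and 296 CPM in the controls, while Optn sits near 80 CPM in all 4 libraries.

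Sqstm1 (ENSMUSG00000015837) had the most CPM of the 8 genes in every library, on a 3' scale that does not grow with transcript length, and the highest fold change. It had 7957 and 9884 counts in deletion replicates 1 and 2, or 437 and 508 CPM, against 5029 and 4312 counts in control replicates 1 and 2, or 310 and 296 CPM. The 2 deletion libraries were the higher ones, with no overlap, and the gap between the groups was wider than the spread within either. The group means were 472 ± 50 CPM in the deletion livers and 303 ± 10 CPM in the controls (SD, n = 2 each), a 1.56-fold difference. The log2 fold change was 0.64 ± 0.17 (SE), with a 95% interval of 0.24 to 1.04 before adjustment, an unadjusted p of 0.0079 and an edgeR adjusted p of 0.0779, so it did not pass. Of all tested genes, 15.2% had a higher log2 fold change.

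The Sqstm1 call turned on the tool and the scaling, while its direction did not. It passed with DESeq2 (adjusted p = 0.0117, where 6.8% of all genes were called higher), with library sizes alone as scaling (0.0251, where 10.7% were) and without a filter on low counts (0.0170, where 6.41% were). In the other 8 alternatives it did not, and over all 11 the adjusted p ran from 0.0117 to 0.394. Without the filter the SEs of Sqstm1, Optn and Calcoco1 were nearly equal, at 0.205, 0.199 and 0.200. With the filter they were 0.166, 0.140 and 0.274, so the fit without it took little account of each gene's own replicate spread. The Sqstm1 log2 fold change stayed positive in all 11, from 0.53 without deletion replicate 2 to 0.94 with library sizes alone, a scaling that moved the median of all genes by 0.29. Against the mean of the controls it was 0.53 in deletion replicate 1, the library with no Y-linked counts, and 0.75 in deletion replicate 2.

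**Figure D2:**
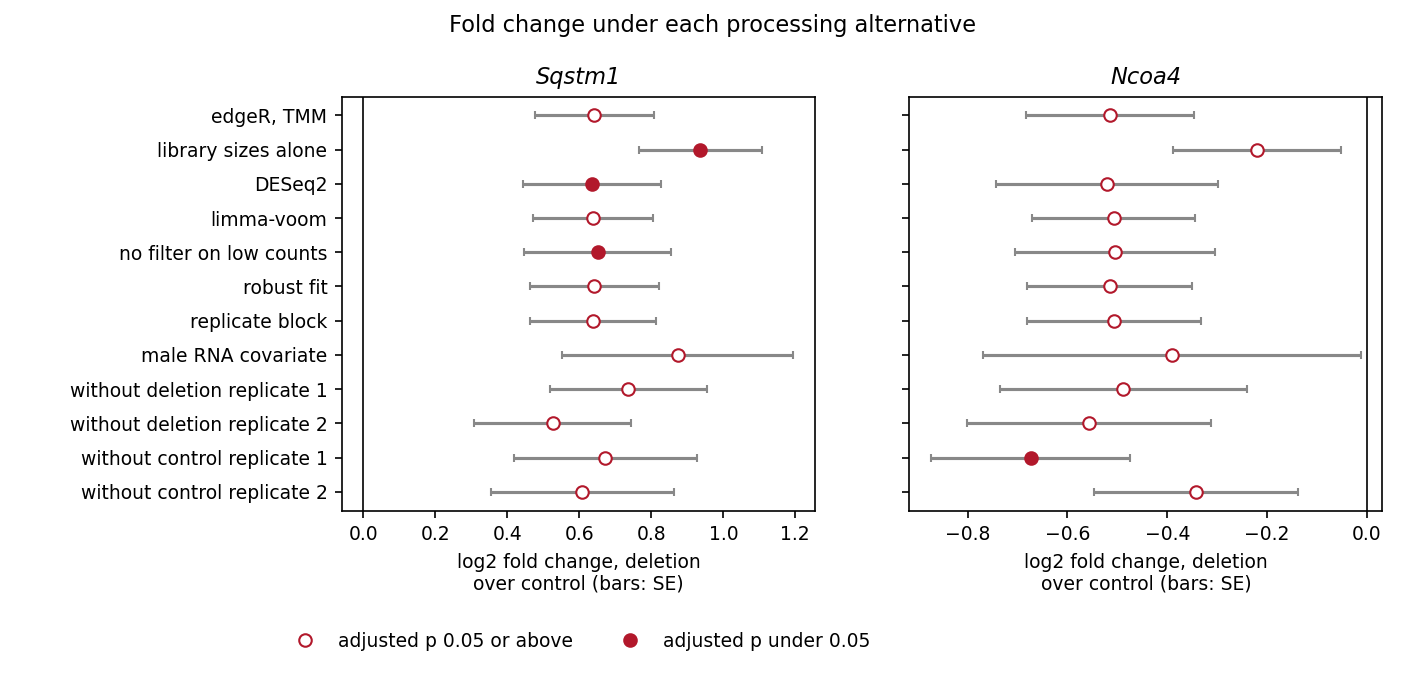
Log2 fold change, deletion over control, of Sqstm1 and Ncoa4 in the edgeR fit (top row) and under 11 processing alternatives, with bars of 1 SE; filled points have an adjusted p under 0.05. All Sqstm1 values lie above 0 (3 alternatives filled) and all Ncoa4 values below 0 (1 filled, without control replicate 1).

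The Sqstm1 gene lies on chromosome 11 from 50199366 to 50210827 of GRCm38, on the minus strand, and its principal transcript has 8 exons, the last from 50200152 to 50200947. The far 3' part of the annotated gene, 750 bases from 50199366 to 50200115, overlaps Mrnip on the other strand, outside that last exon. Mrnip had 18 and 49 counts in the deletion libraries and 40 and 29 in the controls, far below the counts of Sqstm1. The strand setting of the counting is not given in the sources used here, so reads in that overlap cannot be told apart.

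Within the receptor genes, Sqstm1 took a larger share of the counts in the deletion livers, a measure that needs no scaling between libraries. It held 44.6% (95% exact Clopper-Pearson interval 43.8 to 45.3) and 44.5% (43.8 to 45.1) of the 8 genes' counts in deletion replicates 1 and 2, against 31.6% (30.9 to 32.3) and 31.1% (30.4 to 31.9) in control replicates 1 and 2. The intervals cover counting error only, on sums of 17852 and 22215 counts in the deletion libraries and 15910 and 13855 in the controls. The groups did not overlap, and replicates of a group lay within 1 percentage point of each other. The means were 44.5% ± 0.06 in the deletion livers and 31.4% ± 0.34 in the controls (SD, n = 2 each), a difference of 13.2 points, with an exact permutation p of 0.333 (two-sided), the smallest that 2 against 2 allows. Counts of Sqstm1 per count of Nbr1 were 2.95 and 2.65 in the deletion libraries, against 1.35 and 1.43 in the controls. For each of the 7 other receptor genes this ratio was higher in both deletion libraries than in both controls. The margin was narrowest for Wdfy3, with 8.12 and 7.90 in the deletion libraries and 7.81 and 5.21 in the controls. The 7 ratios share Sqstm1, the member with the highest fold change, as numerator, so they are not separate observations. In CPM, 28.7% of all tested genes lay above both controls.

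**Figure D3:**
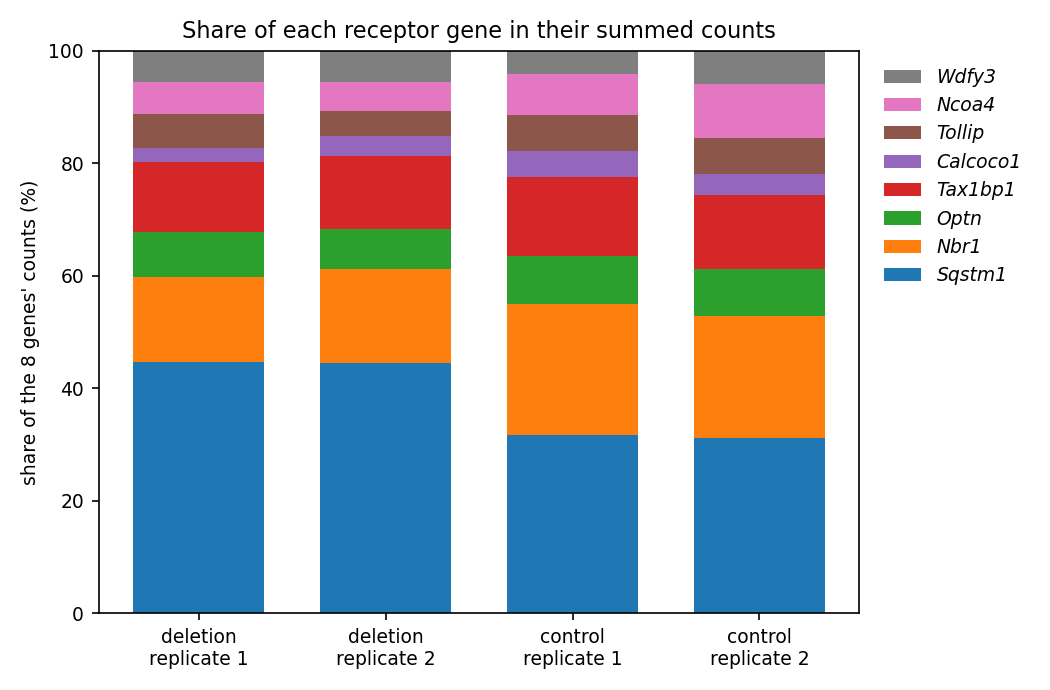
Share of each receptor gene in the summed counts of the 8 genes, in percent, for each library. The lowest block, Sqstm1, is 44.6% and 44.5% high in the deletion libraries and 31.6% and 31.1% in the controls, and the Nbr1 block above it is 15.1% and 16.8% high in the deletion libraries and 23.4% and 21.8% in the controls.

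Nbr1 and Wdfy3 encode proteins that work beside p62 on ubiquitinated protein. Nbr1 (ENSMUSG00000017119) encodes a receptor related to p62 that binds it and is also known for the autophagy of peroxisomes. It had 148 and 192 CPM in the deletion libraries, against 229 and 207 CPM in the controls. The deletion libraries were the lower ones without overlap, but deletion replicate 2 lay close to control replicate 2. The log2 fold change was -0.36 ± 0.18 (95% interval -0.81 to 0.08, edgeR adjusted p = 0.291). Wdfy3 (ENSMUSG00000043940) encodes ALFY, a large scaffold that links p62-bound aggregates to the autophagy machinery. It had 53.8 and 64.3 CPM in the deletion libraries and 39.7 and 56.8 CPM in the controls, and the groups overlapped. Its log2 fold change of 0.29 ± 0.21 did not pass either (95% interval -0.23 to 0.81, adjusted p = 0.464). Nbr1 lies on chromosome 11 (101552149 to 101581951, plus strand, 24 exons) and Wdfy3 on chromosome 5 (101832956 to 102069921, minus strand, 67 exons).

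Optn, Tax1bp1 and Tollip encode receptors that read ubiquitin and also serve in innate immune signalling. Optn (ENSMUSG00000026672) encodes optineurin, a mitophagy receptor that the kinase TBK1 activates. It had 79.7 and 80.2 CPM in the deletion libraries and 83.9 and 78.9 CPM in the controls. Both deletion values lay between the 2 controls, and the log2 fold change was -0.026 ± 0.14 (95% interval -0.37 to 0.31, edgeR adjusted p = 0.938), or 0.27 with library sizes alone. The interval does not exclude differences as large as 0.31 or -0.37 on the log2 scale.

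Tax1bp1 (ENSMUSG00000004535) encodes a receptor for protein aggregates that also works with the ubiquitin-editing enzyme A20. It had 122 and 148 CPM in the deletion libraries and 136 and 126 CPM in the controls, with overlap, as deletion replicate 1 was the lowest of the 4 and deletion replicate 2 the highest. Its log2 fold change was 0.043 ± 0.16 (95% interval -0.36 to 0.44, edgeR adjusted p = 0.908), and its sign changed when either deletion replicate 2 (-0.10) or control replicate 2 (-0.014) was left out. Tollip (ENSMUSG00000025139) encodes an adaptor of Toll-like receptor and endosomal pathways that has been described as a receptor for aggregates. It had 59.4 and 50.8 CPM in the deletion libraries and 62.2 and 60.5 CPM in the controls, the deletion values being lower by a narrow margin. The log2 fold change was -0.15 ± 0.15 (95% interval -0.52 to 0.22, adjusted p = 0.596), or 0.13 with library sizes alone. The 3 genes lie on chromosome 2 (Optn, 5020642 to 5064051, minus strand), chromosome 6 (Tax1bp1, 52713729 to 52766780, plus strand) and chromosome 7 (Tollip, 141874813 to 141918507, minus strand).

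Ncoa4 and Calcoco1 encode receptors of defined cargoes. Ncoa4 (ENSMUSG00000056234) encodes the receptor that carries ferritin to the lysosome and so frees its iron. It had 1016 and 1145 counts in deletion replicates 1 and 2, or 55.8 and 58.8 CPM, against 1179 and 1329 counts in control replicates 1 and 2, or 72.6 and 91.2 CPM. The deletion libraries were the lower ones with no overlap, and the controls differed from each other 1.26-fold. The log2 fold change was -0.52 ± 0.17 (95% interval -0.92 to -0.11, unadjusted p = 0.0216, edgeR adjusted p = 0.131), and 14.8% of all tested genes had a lower one. It passed in 1 of 11 alternatives, without control replicate 1 (-0.67, adjusted p = 0.0404, where 4.03% of all genes were called lower), and the 11 adjusted p-values ran from 0.0404 to 0.807. Its direction was the same in all 11. The fit without control replicate 1 holds 1 control library and takes its residual spread from the deletion group alone.

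The subunits of its cargo did not pass. Fth1, the ferritin heavy chain, had 1144 and 1187 CPM in the deletion libraries and 1166 and 978 CPM in the controls (log2 fold change 0.12 ± 0.18, edgeR adjusted p = 0.747; -0.00096 without control replicate 2), and Ftl1, the light chain, was at 0.11 ± 0.18 (adjusted p = 0.770). Herc2, a ubiquitin ligase known to control NCOA4 levels, was at 0.089 ± 0.15 (adjusted p = 0.778; -0.026 without deletion replicate 2). Calcoco1 (ENSMUSG00000023055) encodes a receptor for the endoplasmic reticulum and Golgi. It had 24.3 and 40.2 CPM in the deletion libraries and 46.3 and 34.9 CPM in the controls, the widest spread between replicates of the 8 genes in the deletion livers (1.65-fold), and the groups overlapped. Its log2 fold change was -0.33 ± 0.27 (95% interval -0.997 to 0.34, adjusted p = 0.520). Ncoa4 lies on chromosome 14 (32159865 to 32179855, plus strand, 10 exons) and Calcoco1 on chromosome 15 (102706777 to 102722178, minus strand, 15 exons).

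**Figure D4:**
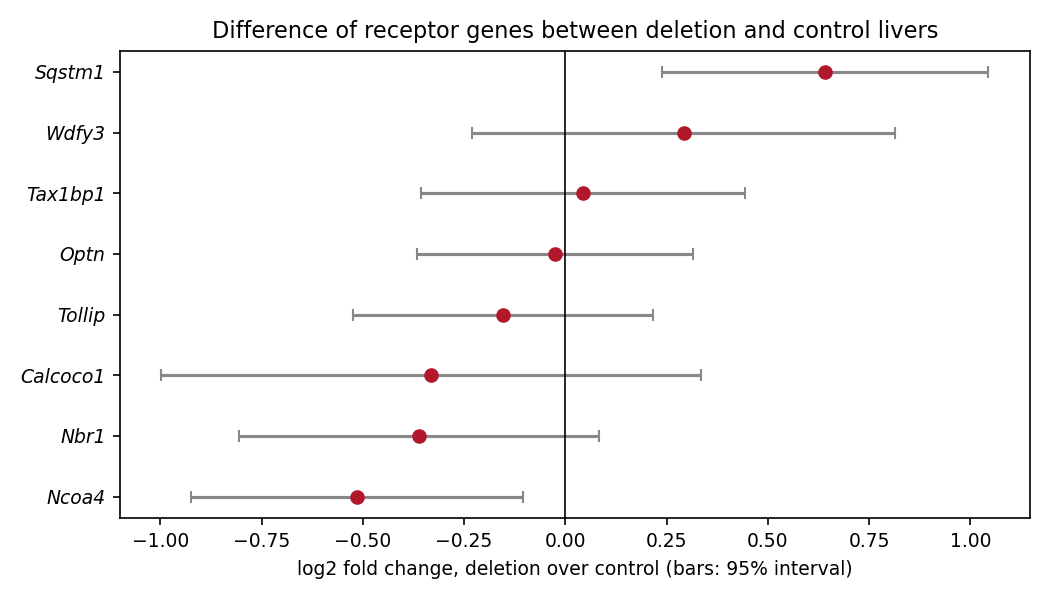
Log2 fold change, deletion over control, of the 8 receptor genes with 95% intervals that are not adjusted for the number of genes tested. Sqstm1 at 0.64 and Ncoa4 at -0.52 have intervals on 1 side of 0, and the other 6 intervals include 0.

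The genes nearest to Sqstm1 in pattern were sought by the Euclidean distance between log2 CPM values centred over the 4 libraries, among 9708 tested genes with a mean of at least 100 counts. The 5 nearest were Ywhaz (distance 0.033), Gpx4 (0.038), Eif2ak2 (0.047), Nod1 (0.050) and Csf2rb (0.055), whose log2 fold changes of 0.64 to 0.68 are fixed by this choice. None of these passed either (edgeR adjusted p from 0.0610 to 0.107). The other receptor genes were far down the same order, from rank 1996 for Wdfy3 to rank 8165 for Ncoa4.

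Lists of genes around the receptors were compared in the same fit, in which 4.41% of all tested genes rose and 2.16% fell. At an unadjusted p under 0.05, 14.0% were higher and 10.5% lower, and DESeq2 called 6.8% higher. Few or no calls in lists this short therefore say little of them. The 5 ATG8 genes, whose proteins the receptors bind on the membrane, had 0 calls with edgeR, 0 with DESeq2 and 0 at an unadjusted p under 0.05, and their median log2 fold change was -0.057. Map1lc3b, which encodes LC3B, had 96.6 and 122 CPM in the deletion libraries and 143 and 127 CPM in the controls (log2 fold change -0.30 ± 0.18, edgeR adjusted p = 0.353). Gabarapl1 had 138 and 233 CPM in the deletion libraries and 402 and 187 CPM in the controls, so that control replicate 1 stood above the other 3. The groups overlapped and the difference of -0.67 ± 0.41 missed the threshold (adjusted p = 0.378). It was -1.12 without control replicate 2, -0.66 without a filter on low counts (0.0141) and -0.011 without control replicate 1. Without the filter its SE was 0.20, against 0.41 with it. Of 17 genes listed as organelle receptors 15 were tested and 0 were called (1 higher and 1 lower at an unadjusted p under 0.05, and 1 higher with DESeq2), with a median of -0.16. Bnip3, a mitophagy receptor of the outer mitochondrial membrane, had 118 and 106 CPM in the deletion libraries and 147 and 153 CPM in the controls (-0.42 ± 0.15, adjusted p = 0.152). In the core machinery, 1 of 24 genes fell and 23 did not pass, with a median of -0.26. With library sizes alone as scaling 0 of the 24 were called lower, and that scaling moved the median of all genes by 0.29. With TMM and an unadjusted p under 0.05, 7 of the 24 were lower and 0 higher. In CPM 17 lay below both controls and 2 above both. Among all tested genes 10.5% were lower by that p and 27.3% lay below both controls. The 1 that fell was Atg13, a subunit of the initiation kinase complex, with 39.2 and 43.0 CPM in the deletion libraries and 75.1 and 79.0 CPM in the controls (-0.91 ± 0.15, adjusted p = 0.0231), and its call was lost without deletion replicate 1 (0.107) or 2 (0.101), with library sizes alone (0.0528), with a replicate block (0.0674) and with male RNA as covariate (0.511).

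Among 25 kinases and binding partners of the receptors, 1 rose, 0 fell and 24 did not pass, with a median of 0.043. That compares with 4.41% of all tested genes that rose and 2.16% that fell. At an unadjusted p under 0.05, 3 of the 25 were higher and 3 lower, where 14.0% and 10.5% of all tested genes were. With DESeq2 3 were called higher, where 6.8% of all tested genes were, and 1 lower. The largest change was that of Tnfaip3, which encodes A20. It had 59.1 and 13.5 CPM in the deletion libraries and 5.05 and 3.29 CPM in the controls (log2 fold change 3.11 ± 0.70, edgeR adjusted p = 0.0568). The 1 that rose was Tnip1, an ubiquitin-binding partner of A20 and of TAX1BP1 that restrains NF-kB signalling, with 27.5 and 24.4 CPM in the deletion libraries and 9.24 and 7.21 CPM in the controls (log2 fold change 1.66 ± 0.19, edgeR adjusted p = 0.00973). It passed in 10 of 11 alternatives and not with male RNA, measured by the Y-linked counts, as covariate (0.240). Tbk1, the kinase of OPTN and p62, had 34.2 and 33.1 CPM in the deletion libraries and 26.3 and 28.0 CPM in the controls, and its 0.31 ± 0.14 missed the threshold (adjusted p = 0.249; 0.0484 with library sizes alone). Traf6, a ubiquitin ligase that p62 binds and that works with Ubc13, was at 0.22 ± 0.18 (adjusted p = 0.508). Keap1 was at 0.15 ± 0.15 (adjusted p = 0.605), and Nfe2l2, which encodes NRF2, had 147 and 89.4 CPM in the deletion libraries and 60.5 and 59.6 CPM in the controls, and its 0.97 ± 0.25 missed the threshold too (adjusted p = 0.0744). Nfe2l2 passed in 6 of the 11 alternatives, 3 of them without 1 library (adjusted p = 0.0372 without deletion replicate 2, 0.0301 without control replicate 1 and 0.0268 without control replicate 2). It was lower at 0.56 without deletion replicate 1 and at 0.13 with male RNA as covariate (0.941). Fits without 1 library take their residual spread only from the group that keeps both libraries.

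Response genes of NRF2, of which Sqstm1 is known to be another, rose in part. In this list 26 genes were tested, of which 8 rose and 18 missed the threshold, where 4.41% of all tested genes rose. The list's median log2 fold change was 0.98, where that of all tested genes was -0.0036. Of the 26 genes 0 fell with edgeR, with DESeq2 or at an unadjusted p under 0.05. In CPM 24 lay above both controls, 1 (Mafg) below both and 1 (Osgin1) overlapped them. Among all tested genes 28.7% lay above both controls and 27.3% below both. Mafg and Osgin1 were named after their values were seen. The glutathione transferases Gsta1 and Gstm3, whose near-identical relatives can share reads, had 32.4 and 54.3 CPM and 1535 and 2507 CPM in the deletion libraries, against 1.05 and 0.549 CPM and 177 and 52.2 CPM in the controls. The carbonyl reductase Cbr3 had 17.8 and 43.2 CPM in the deletion libraries, against 1.54 and 0.755 CPM in the controls, and the sulfiredoxin Srxn1 had 132 and 252 CPM in the deletion libraries, against 40.9 and 27.1 CPM in the controls. Their log2 fold changes were 5.73 ± 0.40, 4.14 ± 0.63, 4.71 ± 0.56 and 2.50 ± 0.36 for Gsta1, Gstm3, Cbr3 and Srxn1 (edgeR adjusted p from 0.0039 to 0.0198). The calls of Gsta1 and Cbr3 held in all 11 alternatives, while those of Gstm3 and Srxn1 were lost with a replicate block (0.0501 and 0.0550) and with male RNA as covariate (0.131 and 0.0570). The classical targets Nqo1, Gclc and Hmox1 were at 1.78 ± 0.44, 1.04 ± 0.31 and 0.87 ± 0.28 and did not pass (adjusted p = 0.0699, 0.111 and 0.126). They turned on single libraries. With 1 library left out, Nqo1 ran from 1.31 to 2.51. Gclc ran from 0.48 without deletion replicate 2 to 1.42 without deletion replicate 1. Hmox1 ran from 0.49 without deletion replicate 1 to 1.17 without deletion replicate 2. The number called in the list was 2 with male RNA as covariate, where 65 of all tested genes were called in either direction. It was 3 with a replicate block, where 390 were, and 8 in the edgeR fit, where 959 were. Like the number called over all genes, it also moved with 1 library left out.

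Genes of lysosomes and of the TFEB family, and genes of Mallory-Denk body proteins, which gather with p62 in damaged hepatocytes, completed the comparison. The 21 lysosomal and TFEB family genes had a median log2 fold change of 0.040, and 0 of them fell with edgeR or with DESeq2 (1 at an unadjusted p under 0.05). Among all tested genes 2.16% fell with edgeR and 10.5% were lower at that unadjusted p. Of 10 Mallory-Denk body genes 4 rose, 0 fell and 6 did not pass, with a median of 0.76, where 4.41% of all tested genes rose. Krt8 and Krt18, the keratin pair of hepatocytes that forms these bodies, had 891 and 1455 CPM and 556 and 853 CPM in the deletion libraries, against 273 and 236 CPM and 145 and 161 CPM in the controls. Both rose by 2.20 on the log2 scale (adjusted p = 0.0120 and 0.00901) and passed in all 11 alternatives. Duct cells express them too, and the part of duct cells here was not tested. The ductular marker sums above differ between the groups and are mostly Spp1. Sox9 and Cdh1 also rose, while Krt19 and Epcam (log2 fold changes -2.62 and -0.77) did not pass and overlapped the controls. The small heat shock protein gene Hspb1 had 18.9 and 13.6 CPM in the deletion libraries, against 3.39 and 5.15 CPM in the controls (1.93 ± 0.30, adjusted p = 0.0210), and its call was lost without deletion replicate 1 (0.0690), with a replicate block (0.0650) and with male RNA as covariate (0.415). The transglutaminase Tgm2 had 733 and 606 CPM in the deletion libraries, against 106 and 253 CPM in the controls (1.90 ± 0.40, adjusted p = 0.0485). Its call was lost without deletion replicate 1 (0.111) or 2 (0.110), with a robust fit (0.0619), with a replicate block (0.0752) and with male RNA as covariate (0.485).

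**Figure D5:**
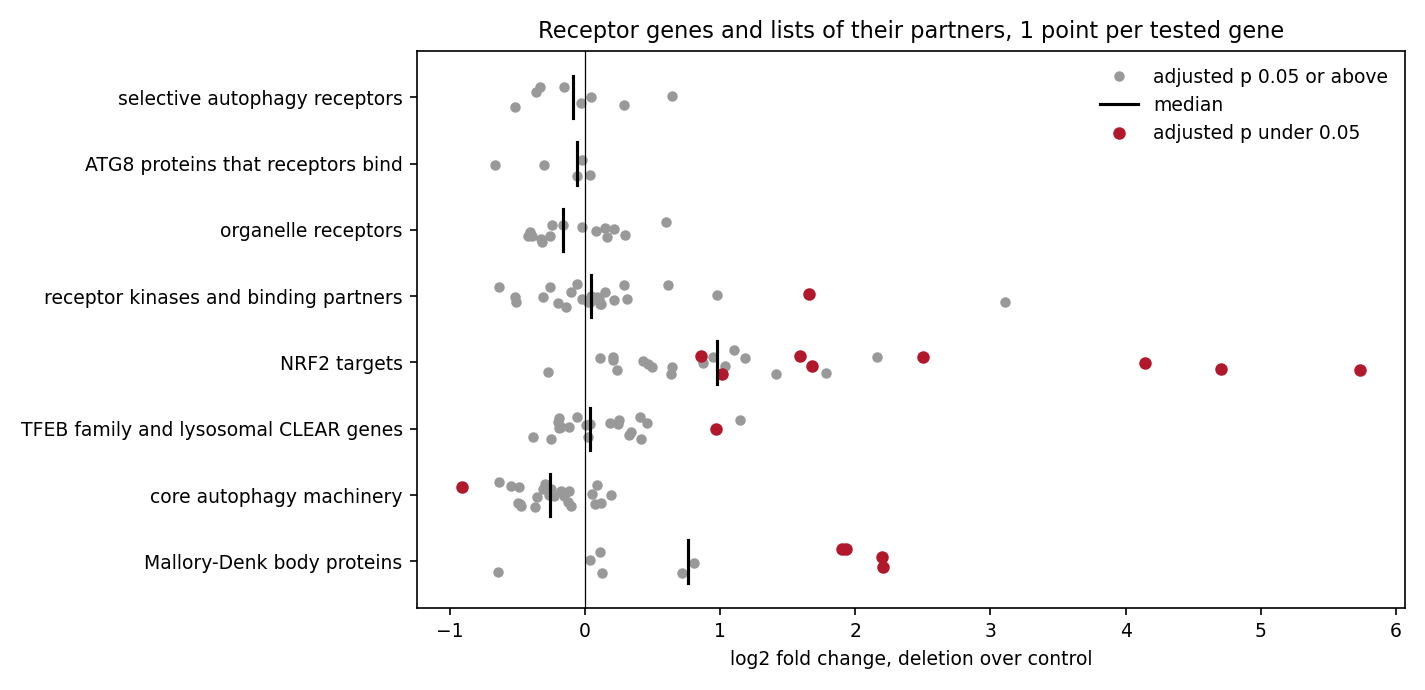
Log2 fold change, deletion over control, of each tested receptor gene and of each tested gene of the 7 lists around them; red points have an adjusted p under 0.05 and black bars are medians. The 8 receptor genes lie between -0.52 and 0.64 around a median of -0.090, while the median of the NRF2 list is 0.98 and that of the core machinery -0.26.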

How the data were processed

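Per the labels' protocols, QuantSeq 3' libraries were read as single-end 75 bp reads and aligned with Bowtie2, with mm10 and GRCm38 as builds per the submitters' processing notes. The authors deposited raw counts per Ensembl gene (56953 rows, 4 columns, 0 other columns); how reads were counted (program, strand, annotation) was not stated in the sources used. A 3' count follows the number of transcripts, so CPM was not divided by length. Symbols (52029 rows) and coordinates are from GENCODE M21 on GRCm38, promoters from RefSeq.

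Groups were compared over all genes by edgeR's quasi-likelihood test (edgeR 4.0.16 in R 4.3.3, TMM, filterByExpr with min.count 10 and min.total.count 15, genotype as the only term, Benjamini-Hochberg adjusted p under 0.05, 2 residual degrees of freedom), checked on simulated data. In the simulation 21.2% of 99 genes with a log2 change of 1 were called (21 genes) and 71.4% of 98 with 2 (70 genes). Beside these, 10 unchanged genes were called falsely. A gene that did not pass may therefore still differ, and a call may be false. Few of the 14600 genes were changed in the simulation, while the data gave 959 calls, so its rates may not carry over to the data. The SE was derived from each fold change and its F statistic, and 95% intervals use 6.14 degrees of freedom. DESeq2 1.42.0, limma-voom (limma 3.58.1) and other settings stand as alternatives. Replicates of a group were not repeats of 1 library, as a chi-square of their counts per degree of freedom was 25.3 in the deletion group and 38.9 in the controls. A count of 3 equals 0.154 to 0.206 CPM.

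The members, the lists and most alternatives, male RNA as covariate among them, were chosen with earlier results of these data known. All 8 members are described; of each list the text names the genes called, up to the 4 with the largest change, and a fixed set of 16 genes. The named genes Krt19, Epcam and Tnfaip3, as well as Xist, were chosen after their values were seen. A result of the lysosomal list and one of the ductular markers are not reported here.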

Additional observations from a re-analysis of the deposited data

How the results depend on the processing

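The number of genes called, 959, was 1764 with library sizes alone, 1647 with DESeq2, 2768 without a filter on low counts, 390 with a replicate block, 65 with male RNA as covariate (which leaves 1 residual degree of freedom) and 343 to 2081 with 1 library left out. The receptor genes called higher were 0, but 1 (Sqstm1) with library sizes alone (log2 fold change 0.94), DESeq2 (0.63) and no filter (0.65); those called lower were 0, but 1 (Ncoa4) without control replicate 1, and with 1 library left out the Ncoa4 value ran from -0.67 to -0.34. Signs turned, always without a call, for Nbr1 (0.023), Calcoco1 (0.38), Map1lc3b (0.043) and Gabarapl1 (0.0062) with the male RNA covariate and for Optn (0.27) and Tollip (0.13) with library sizes alone. They also turned with 1 library left out for Optn (-0.069 to 0.015), Tax1bp1 (-0.10 to 0.17), Fth1 (-0.00096 to 0.25) and Herc2 (-0.026 to 0.18); the cause was not tested, except that library sizes alone move the median of all genes by 0.29. The difference in the Sqstm1 share, 13.2 points, was 12.5 points without Nbr1 in the sum and 12.9 to 13.4 with 1 library left out. Of the list counts, NRF2 targets called higher, 8, ran from 2 with the male RNA covariate and 3 with a replicate block to 19 without a filter on low counts. The number called over all genes, given above, moved the same way. The fit without the filter took little account of each gene's own replicate spread.

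The labels do not say that equal replicate numbers share an animal, litter or day, and deviations of same-numbered libraries had a correlation of -0.13, so the samples share only a number. With the replicate block 390 genes and 0 receptor genes were called. With crossed pairs, an alternative chosen after seeing the data, 1366 genes and 0 receptor genes were called. With 2 libraries a group, even the receptor gene with the narrowest 95% interval, Optn, had one from -0.37 to 0.31 on the log2 scale.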
